A study of Mus musculus with 79 samples.

Results

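The matrix metalloproteases and their inhibitors in the mouse lung are described here through 9 genes, Mmp2, Mmp3, Mmp8, Mmp9, Mmp12, Mmp14, Timp1, Timp2 and Timp3, out of 21759 named genes on the arrays. They were chosen by name, with earlier results of these data known. Each row of the deposited expression table was given a gene symbol from the study's own tables or from the RefSeq gene table. Each of the 9 symbols had 1 row. The study compared whole lung RNA from 79 mice, 40 studied after 1 day and 39 after 5 days of exposure, in 16 groups of 4 to 6 mice by genotype, exposure, sex and duration. Wild type (WT) C57BL/6J mice were compared with Scnn1b-transgenic littermates (named BENaC in the labels and βENaC here), which overexpress the β subunit of the epithelial sodium channel in airway epithelial cells. Mice were 5 to 7 weeks old. Smoke-exposed mice received mainstream and side-stream smoke of 6 filterless reference cigarettes per day, sham-exposed mice sat in the chamber with room air, and the right lung was taken 4 hours after the last exposure. The transgene is expressed in the airway epithelium while RNA came from homogenized whole lung, so a genotype difference in whole lung includes any difference in the cells that lungs of either genotype contain. Fewer cells of a type and less RNA per cell cannot be told apart in these bulk samples.

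Matrix metalloproteases are zinc enzymes that are made as inactive proenzymes and cleave collagens, elastin, laminins and many other extracellular proteins. The tissue inhibitors of metalloproteases (TIMPs) block them by binding the active site, and the balance between enzymes and inhibitors is known to shape alveolar wall breakdown and repair. Mmp12 encodes macrophage elastase, which digests elastin and is known for its part in emphysema of the mouse lung. Mmp3 encodes stromelysin, Mmp8 neutrophil collagenase, Mmp2 and Mmp9 the gelatinases, and Mmp14 a membrane-anchored protease that activates proMMP2 together with TIMP2. Timp1 is the inducible inhibitor, Timp2 is broadly expressed, and Timp3 is bound to the extracellular matrix.

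Mmp12, Mmp3 and Mmp8 lie in a cluster of metalloprotease genes on chromosome 9, whereas Timp1 is on chromosome X. Upstream sequence is shown for Mmp12 and Timp1, the members that differed most between genotypes, and for Mmp3, a cluster neighbour of Mmp12 that did not pass the genotype test. RefSeq (GRCm38.p6) gave windows of the 250 bases before a start site for 7 of the 9 members, not for Mmp2 and Mmp9. All printed windows run 5′ to 3′ on the plus strand and end at the base before the start. The Mmp12 window is at chr9:7347124-7347373, the Mmp3 window at chr9:7445572-7445821 and the Timp1 window at chrX:20869916-20870165.
Mmp12: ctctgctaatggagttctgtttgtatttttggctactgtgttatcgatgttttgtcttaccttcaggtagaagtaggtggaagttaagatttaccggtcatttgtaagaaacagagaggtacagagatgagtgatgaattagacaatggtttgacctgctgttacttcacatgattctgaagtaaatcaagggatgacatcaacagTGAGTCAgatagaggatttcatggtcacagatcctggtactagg
Mmp3: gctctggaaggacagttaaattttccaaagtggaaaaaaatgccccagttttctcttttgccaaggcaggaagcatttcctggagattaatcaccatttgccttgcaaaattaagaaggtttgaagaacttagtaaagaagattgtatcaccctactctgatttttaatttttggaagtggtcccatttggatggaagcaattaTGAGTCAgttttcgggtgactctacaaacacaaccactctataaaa
Timp1: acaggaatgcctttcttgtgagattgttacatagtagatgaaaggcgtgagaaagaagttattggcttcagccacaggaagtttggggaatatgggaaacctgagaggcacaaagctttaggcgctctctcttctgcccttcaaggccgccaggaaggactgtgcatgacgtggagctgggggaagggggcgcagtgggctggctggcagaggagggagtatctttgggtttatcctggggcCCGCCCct
Capitals mark matches to the AP-1 type motif TGANTCA in Mmp12 and Mmp3 and to the GC box GGGCGG, read on the opposite strand, in Timp1. The AP-1 type match began 44 bases before the start in Mmp12 and 46 bases before it in Mmp3, and the GC box match began 8 bases before the start in Timp1. Both motifs were searched on both strands, and no matches overlapped. TGANTCA was present in 6.75% of 32851 windows of this length over all genes and GGGCGG in 32.7%. The Timp1 window held no TGANTCA, and another Mmp12 start site listed by RefSeq (window chr9:7344147-7344396) held neither motif. These matches describe letters in the windows, and binding was not measured.

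Values are deposited log2 intensities, on which a difference of 1 is a doubling, and levels are compared only between mice for the same gene. Array medians lay between 4.44 and 4.55, and any pair of arrays correlated at 0.965 or more. The transgene check separated the genotypes: Scnn1b was 8.42 to 9.47 in WT mice and 11.52 to 11.88 in βENaC mice. For 1 mouse the study set the genotype from its Scnn1b level, so the check is not independent there. Cyp1a1, which smoke constituents induce, was at most 8.98 in sham-exposed and at least 9.96 in smoke-exposed mice. The study removed 1 array as mislabelled for smoke exposure from plasma cotinine and gene expression, so the Cyp1a1 check is not fully independent. For 13 WT smoke-exposed mice a sample source label named the other genotype, against the title, and their Scnn1b was in the WT range. Defining lung markers were high in every sample (Scgb1a1 13.07 to 13.35, Sftpc 12.51 to 12.78). A WT smoke-exposed female of the 5-day groups, replicate 2, stood apart in several members and marker lists, and results that rest on it are given with and without it where its removal changed which side of the threshold a member was on or moved a printed genotype or smoke difference by over 1.5 times.

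The largest differences of any member were those of Mmp12 and Timp1 between genotypes. An additive model of genotype, exposure and sex was fitted in limma for each duration over all 31350 rows, and a gene was called when its Benjamini-Hochberg adjusted p was below 0.05 and its coefficient exceeded a 1.3-fold change. Of the 9 members, 2 were called at each duration, Mmp12 and Timp1, both higher in βENaC mice, against 1.54% of all rows called at 1 day and 2.52% at 5 days. Without the fold threshold Mmp14 also passed, higher in βENaC mice at both durations, and Timp3 passed, lower in βENaC mice, at 5 days. That makes 3 of 9 members at 1 day and 4 of 9 at 5 days, against 5.87% and 10.2% of all rows. Since the members were chosen with earlier results of these data known, these member counts and those below are descriptions only.

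Mmp12 intensity varied over a wide range in βENaC mice and a narrow one in most WT mice. At 1 day, sham-exposed WT mice had Mmp12 values from 5.68 through a median of 5.93 to 6.56 (n = 10). Smoke-exposed WT mice ran from 5.26 through 5.57 to 8.25 (n = 10). Sham-exposed βENaC mice ran from 5.93 through 8.31 to 11.10 (n = 10). The smoke-exposed βENaC mice lay between 5.94 and 10.44 with a median of 9.40 (n = 10). Of the 20 βENaC mice, 12 were above every WT mouse and the remaining 8 overlapped the WT range.
At 5 days the lowest, median and highest Mmp12 values were 5.77, 6.01 and 6.57 in sham-exposed WT mice (n = 11) and 4.89, 5.93 and 8.20 in smoke-exposed WT mice (n = 9). They were 8.43, 10.09 and 11.04 in sham-exposed βENaC mice (n = 9) and 6.05, 8.15 and 11.53 in smoke-exposed βENaC mice (n = 10). All 9 sham-exposed βENaC mice were above every WT mouse, and 14 of all 19 βENaC mice were. A smoke-exposed WT male at each duration, at 8.25 and 8.20, reached into the βENaC range, and every other WT mouse was at or below 6.57.
The fitted Mmp12 difference between genotypes was 2.56 (SE 0.39, adjusted p = 2.28e-05) at 1 day, a 5.91-fold higher level in βENaC mice (95% confidence interval 3.41 to 10.2). At 5 days it was 3.22 (SE 0.34, adjusted p = 9.80e-09), or 9.33-fold (5.77 to 15.1). Relative to the mean of WT mice of the same exposure and sex, Mmp12 was higher in 17 of 20 βENaC mice at 1 day and in 19 of 19 at 5 days. The genotype by duration term for Mmp12 was 0.66 (SE 0.53, adjusted p = 0.885), so the larger value at 5 days was not distinguished from that at 1 day, and 0% of all rows passed for this term.

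**Figure D1:**
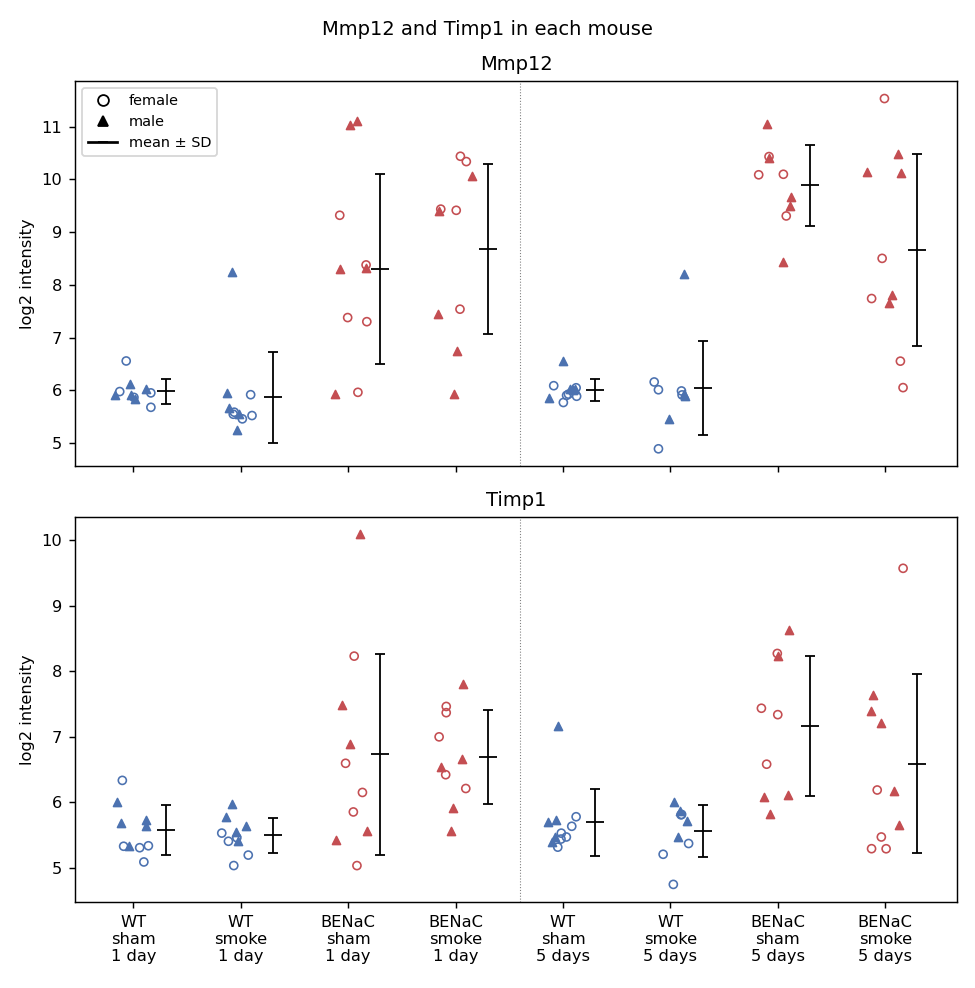
Log2 intensity of Mmp12 and Timp1 in each mouse (open circles female, triangles male) by genotype, exposure and duration, with the mean and SD of each group. Mmp12 in sham-exposed βENaC mice at 5 days, 8.43 to 11.04, lies above every WT mouse, whereas βENaC mice of the other 3 exposure and duration groups spread from 5.93 to 11.53.

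Ordered by group mean, Mmp12 was lowest in WT mice exposed to smoke for 1 day (5.87 ± 0.86, SD, n = 10), followed by WT sham at 1 day (5.98 ± 0.23, n = 10), WT sham at 5 days (6.01 ± 0.21, n = 11) and WT smoke at 5 days (6.05 ± 0.89, n = 9). Above them came βENaC sham at 1 day (8.30 ± 1.80, n = 10), βENaC smoke at 5 days (8.66 ± 1.82, n = 10), βENaC smoke at 1 day (8.67 ± 1.61, n = 10) and βENaC sham at 5 days (9.88 ± 0.76, n = 9). Neighbours within the 4 WT groups and within the first 3 βENaC groups differed by less than the SD of either. The gap between the WT and the βENaC groups was larger than the SD of any group.

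Within groups of the same exposure and sex, the βENaC minus WT difference of Mmp12 was above 0 in all 4 strata at each duration. It ranged from 1.66 to 3.82 at 1 day, where 1 of 4 strata passed (smoke-exposed females, 3.82, limma adjusted p = 0.00616). At 5 days it ranged from 2.28 to 4.04 and passed in sham-exposed females (4.04, limma adjusted p = 0.000414) and sham-exposed males (3.71, limma adjusted p = 0.00154). These were the only 3 of 72 member and stratum tests of genotype that passed, while 16 had an unadjusted p below 0.05. Of all rows, 0.102%, 0.466%, 0.986% and 0.144% passed at 1 day in sham-exposed females, sham-exposed males, smoke-exposed females and smoke-exposed males, and 1.51%, 0.88%, 0.278% and 0.341% at 5 days.

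Timp1 rose with Mmp12 in βENaC mice, with a smaller difference and more overlap. At 1 day the lowest, median and highest Timp1 values were 5.09, 5.49 and 6.33 in WT sham, 5.03, 5.49 and 5.97 in WT smoke, 5.03, 6.37 and 10.09 in βENaC sham and 5.56, 6.59 and 7.80 in βENaC smoke mice. At 5 days they were 5.31, 5.53 and 7.16 in WT sham, 4.74, 5.71 and 6.00 in WT smoke, 5.82, 7.33 and 8.63 in βENaC sham and 5.29, 6.17 and 9.57 in βENaC smoke mice. At 1 day 1 βENaC mouse was below every WT mouse, by less than the rounding of these values, at 5 days the lowest βENaC mice were within the WT range, and 12 of 20 βENaC mice at 1 day and 9 of 19 at 5 days were above every WT mouse.
The Timp1 difference was 1.17 (SE 0.26, adjusted p = 0.00322, 2.26-fold) at 1 day and 1.24 (SE 0.28, adjusted p = 0.00264, 2.36-fold) at 5 days. It was above 0 in all 8 strata, from 0.82 to 1.88, and passed in none, with limma adjusted p of 0.105 or more. Without the smoke-exposed βENaC female at 9.57, the 5-day difference was 1.06 (limma adjusted p = 0.00234).

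Mmp14 and Timp3 differed by less than 1.3-fold between genotypes. Mmp14 was 0.20 higher in βENaC mice at 1 day (SE 0.05, adjusted p = 0.0176, 1.15-fold) and 0.22 higher at 5 days (SE 0.06, adjusted p = 0.00921, 1.16-fold). Timp3 was the only member that passed with a lower level in βENaC mice, with a difference of -0.18 at 5 days (adjusted p = 0.00786) and -0.03 at 1 day (adjusted p = 0.781). None of these passed without the 13 mice whose source label differed (Mmp14 0.19 and 0.26, adjusted p = 0.0716 and 0.0700; Timp3 at 5 days -0.18, adjusted p = 0.0916), a set with no smoke-exposed WT mice at 5 days. The other 5 members did not pass at either duration. Their coefficients were 0.23 and 0.10 for Mmp2, 0.15 and 0.15 for Mmp3, 0.14 and 0.14 for Mmp8, -0.15 and -0.09 for Mmp9, and -0.03 and -0.01 for Timp2, with limma adjusted p from 0.217 to 0.889. Without the smoke-exposed WT female replicate 2, the 5-day coefficients were 0.05 for Mmp2 (limma adjusted p = 0.813) and 0.23 for Mmp8 (limma adjusted p = 0.338). The 1-day Mmp8 coefficient ranged from 0.05 to 0.22 when 1 mouse was left out.

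**Figure D2:**
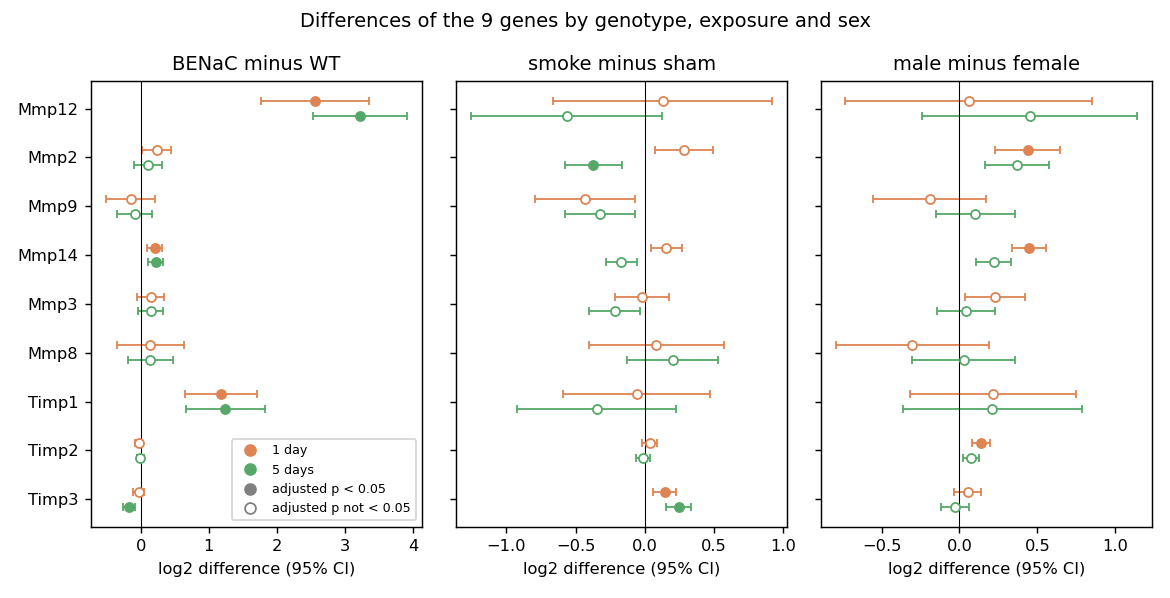
Fitted log2 differences of the 9 genes between βENaC and WT, smoke and sham, and male and female mice (first minus second) at 1 and 5 days, with 95% confidence intervals and filled symbols at an adjusted p below 0.05. Mmp12 (2.56 and 3.22) and Timp1 (1.17 and 1.24) stand apart for genotype, and all exposure differences of the genes that passed lie between -0.37 and 0.24.

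Most, but not all, of the listed alveolar macrophage markers were higher in βENaC mice, as were Mmp12 and Timp1. Of 8 macrophage markers, 5 were called higher in βENaC mice at both durations: Cd68 (0.85 at 1 day and 1.00 at 5 days), the chitinase-like Chil3 (0.70 and 0.79), the integrin Itgax (0.85 and 1.21), the scavenger receptor Marco (0.86 and 0.84) and the mannose receptor Mrc1 (0.51 and 0.63). Siglecf (0.02 and 0.07), Ear2 (0.01 and 0.09) and Fabp4 (0.19 and 0.36), which mark resident alveolar macrophages, did not pass. After 1 day the mean of the 8 markers ran from 8.30 to 8.87 in WT and from 8.46 to 9.98 in βENaC mice. After 5 days the ranges were 8.51 to 8.96 and 8.62 to 10.06. It was above every WT mouse in 13 of 20 and 18 of 19 βENaC mice. The part of macrophage number in the Mmp12 and Timp1 differences was not tested.
Across the 79 mice, Mmp12 correlated with the macrophage marker mean at r = 0.915, and at r = 0.883 after each mouse was expressed as a deviation from its group mean. For Timp1 the within-group value was 0.766 and for Timp3 -0.633. These are descriptions over mice that share groups, and both values of a mouse come from the same array. The smoke-exposed WT male with Mmp12 at 8.25 had the highest macrophage mean of the 1-day WT mice, 8.87. The WT male at 8.20 had a macrophage mean of 8.90, within the WT range of its duration.

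The genes whose pattern was most like that of Mmp12 over all 79 mice were Rnase2a (r = 0.965), Awat1 (0.962) and Slc26a4 (0.961), and within groups they were Rnase2a (0.927), Slc26a4 (0.916) and Ctsk (0.906). Those most like Timp1 were the complement receptor gene C3ar1 (0.927), the chemokine gene Ccl8 (0.925) and the lysosomal protease gene Lgmn (0.923). Within groups Chl1 (0.913), C3ar1 (0.911) and Ccl8 (0.902) were nearest to it. Among the members themselves, within-group deviations of Mmp12 and Timp1 correlated at 0.772. Timp3 ran against both, at -0.587 with Mmp12 and -0.615 with Timp1. The mean of 5 lung endothelium markers also ran against them within groups, with -0.658 for Mmp12 and -0.722 for Timp1. This mean averaged 10.66 in WT (10.51 to 10.76) and 10.47 in βENaC mice (10.08 to 10.67) at 1 day. At 5 days it averaged 10.66 in WT (10.30 to 10.77) and 10.49 in βENaC mice (10.02 to 10.70), and differences in it were not tested.

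In the cluster on chromosome 9, Mmp12 passed for genotype at both durations and Mmp13 at 5 days only. RefSeq orders the protease genes of the cluster with measured rows as Mmp13, Mmp12, Mmp1b, Mmp3, Mmp1a, Mmp10, Mmp8, Mmp20 and Mmp7. Mmp13, a collagenase and the neighbour of Mmp12, had a genotype difference of 0.53 at 1 day (SE 0.25, adjusted p = 0.267) and 1.07 at 5 days (SE 0.29, adjusted p = 0.0129). On the other side of Mmp12, Mmp1b had 0.00 and 0.01, and Mmp3 had 0.15 at both durations. None of the 7 genes from Mmp1b to Mmp7 passed, with coefficients from -0.06 to 0.15. Whether each of these genes was above the array background was not tested.

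**Figure D3:**
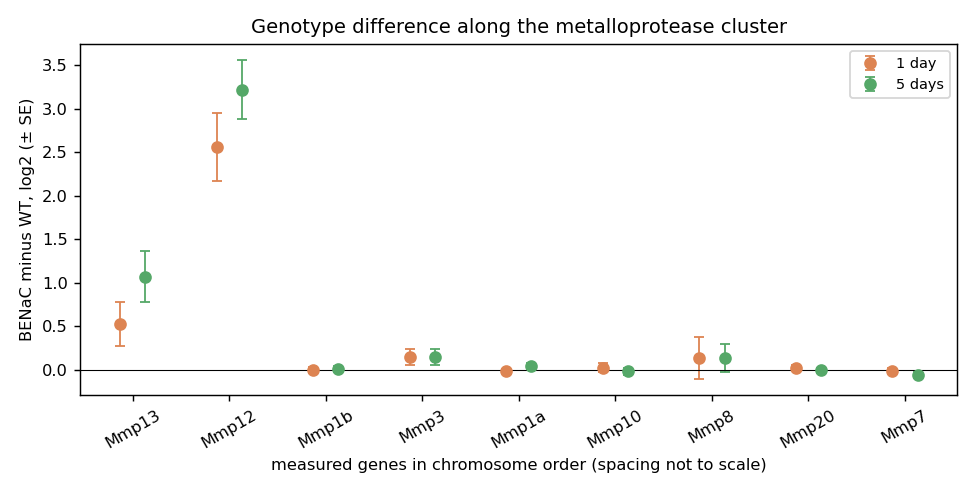
Genotype coefficient (βENaC minus WT, log2) with its SE for the metalloprotease genes of the chromosome 9 cluster in genome order at 1 and 5 days. Mmp12 (2.56 and 3.22) and its neighbour Mmp13 (0.53 and 1.07) lie above the genes from Mmp1b to Mmp7, which lie between -0.06 and 0.15.

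The smoke coefficients of Mmp12 and Timp1 were smaller in size than their genotype coefficients, whereas those of Mmp2, Mmp9 and Timp3 were larger than theirs at both durations, a contrast between coefficients that was not tested. No member was called at more than 1.3-fold by limma or by an ordinary linear model at either duration, against 1.07% of all rows at 1 day and 1.15% at 5 days. At 5 days this count was close to the threshold, since 16 of the 39 fits that left out 1 mouse called a member, 15 of them Mmp2 and 1 Mmp9 (without the smoke-exposed βENaC male replicate 1, -0.38, limma adjusted p = 0.0369). Without the fold threshold, 1 of 9 members passed at 1 day (Timp3) and 2 of 9 at 5 days (Timp3 and Mmp2), against 9.45% and 6.53% of all rows. Unadjusted p-values were below 0.05 for 4 and 5 members.

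The level of the matrix-bound inhibitor Timp3 was higher in smoke-exposed than in sham-exposed mice after 1 and after 5 days. At 1 day its lowest, median and highest values were 10.63, 11.02 and 11.28 in sham-exposed mice (11.02 ± 0.14, SD, n = 20) and 10.90, 11.18 and 11.32 in smoke-exposed mice (11.16 ± 0.12, n = 20). At 5 days they were 10.53, 10.88 and 11.08 in sham (10.87 ± 0.15, n = 20) and 10.63, 11.09 and 11.61 in smoke (11.10 ± 0.18, n = 19). The ranges overlapped at both durations, and 12 of 19 smoke-exposed mice at 5 days were above every sham-exposed mouse.
The fitted Timp3 difference was 0.14 (SE 0.04, adjusted p = 0.0265, 1.10-fold) at 1 day and 0.24 (SE 0.05, adjusted p = 0.000331, 1.18-fold) at 5 days. The 1-day difference did not pass after quantile normalization (0.13, limma adjusted p = 0.0512) or cyclic loess (0.12, limma adjusted p = 0.0515). At 1 day 3 of 4 strata were above 0, from -0.05 in βENaC females to 0.29 in βENaC males, and 15 of 20 smoke-exposed mice were above the sham mean of their own stratum. At 5 days all 4 strata were above 0 (0.21 to 0.28) and 18 of 19 smoke-exposed mice were above the sham mean of their own stratum. Without the WT female at 11.61, the 5-day difference was 0.22 (limma adjusted p = 0.000323).
Within WT mice 8 of 10 smoke-exposed mice at 1 day and 8 of 9 at 5 days were above every sham-exposed WT mouse in Timp3. Within βENaC mice the counts were 2 of 10 and 8 of 10. The exposure by genotype term for Timp3 did not pass at either duration. Within groups, Timp3 correlated at -0.633 with the mean of macrophage markers, -0.536 with that of monocyte markers and 0.495 with that of alveolar epithelial markers. The part of cell composition in the Timp3 smoke difference was not tested.

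Mmp2 and Mmp14, the gelatinase and its activator, showed opposite signs of the smoke difference at the 2 durations. Mmp2 at 1 day had lowest, median and highest values of 8.32, 9.30 and 10.0045 in sham-exposed mice (n = 20) and 8.75, 9.52 and 10.03 in smoke-exposed mice (n = 20). At 5 days they were 8.57, 9.56 and 10.27 in sham (n = 20) and 8.02, 9.32 and 9.72 in smoke (n = 19). Sham and smoke ranges overlapped broadly at both durations. Relative to the sham mean of the same genotype and sex, 16 of 20 smoke-exposed mice were higher at 1 day and 3 of 19 at 5 days.
The Mmp2 difference was 0.28 (SE 0.10, adjusted p = 0.0830) at 1 day and -0.37 (SE 0.10, adjusted p = 0.0174) at 5 days, the latter just short of the 1.3-fold threshold. The exposure by duration term, fitted over all 79 mice, was -0.65 (SE 0.15, limma adjusted p = 0.00808), and 1.49% of all rows passed for this term. Without the WT smoke-exposed female at 8.02, the 5-day difference was -0.32 (limma adjusted p = 0.0264) and the exposure by duration term -0.60 (limma adjusted p = 0.0116).
Mmp14 at 1 day had lowest, median and highest values of 8.48, 9.08 and 9.56 in sham-exposed and 8.70, 9.22 and 9.79 in smoke-exposed mice. At 5 days they were 8.55, 9.23 and 9.73 in sham and 8.71, 9.05 and 9.48 in smoke. The groups overlapped at both durations, with 14 of 20 smoke-exposed mice above and then 3 of 19 above the sham mean of their own stratum. The differences, 0.15 (SE 0.05, adjusted p = 0.0707) and -0.17 (SE 0.06, adjusted p = 0.0655), did not pass, whereas the exposure by duration term did (-0.32, SE 0.08, limma adjusted p = 0.0170). Without the smoke-exposed WT female replicate 2 the 5-day difference passed (-0.19, limma adjusted p = 0.0353).
Mmp2 and Mmp14 were above 0 in all 4 strata at 1 day (0.12 to 0.63 and 0.03 to 0.32) and below 0 in all 4 at 5 days (-0.53 to -0.26 and -0.25 to -0.02), and no stratum passed. Over all members 0 of 72 smoke minus sham tests within strata passed in limma or the ordinary linear model, with 14 unadjusted p-values below 0.05. Of all rows, 0.319%, 0.884%, 0.9% and 0.896% passed at 1 day in WT females, WT males, βENaC females and βENaC males, and 0.533%, 0.128%, 0.14% and 0.574% at 5 days. Neither duration term passed in a model of exposure and duration alone (Mmp2 -0.65, adjusted p = 0.0527; Mmp14 -0.31, adjusted p = 0.260), nor without the 13 mice whose source label differed (-0.69 and -0.38, adjusted p = 0.0681 and 0.0805). Day, age and handling cannot be told apart from duration, since the 1-day and 5-day mice were different animals. Among sham-exposed mice alone Mmp2 was higher in the 5-day than in the 1-day mice by 0.37 (SE 0.11, limma adjusted p = 0.150). For this comparison 0 of 9 members passed, 4 having an unadjusted p below 0.05, against 0.0766% of all rows.

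**Figure D4:**
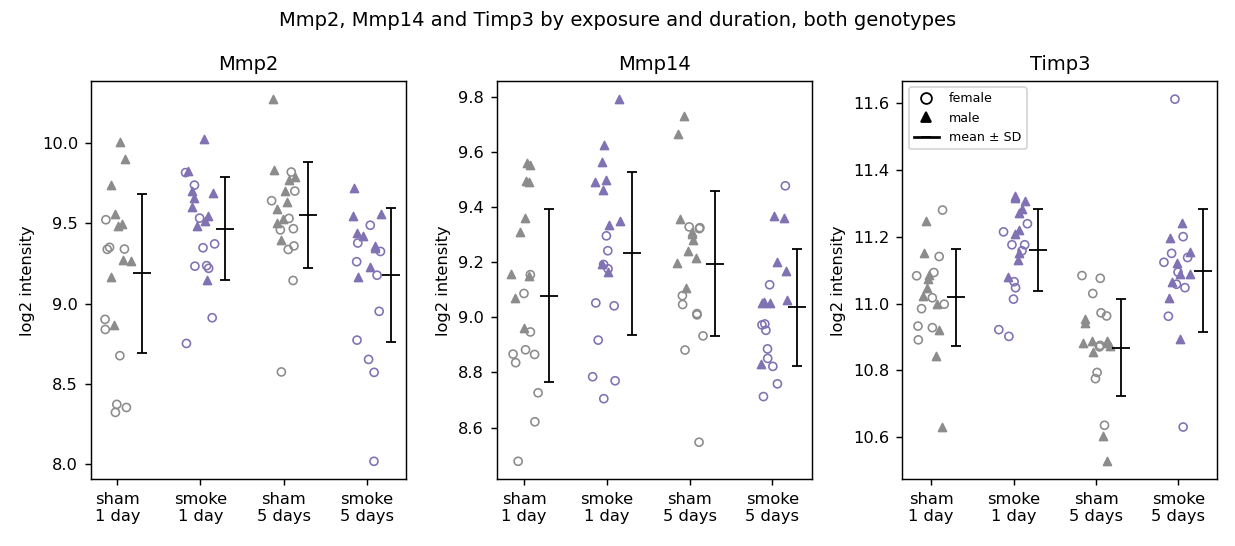
Log2 intensity of Mmp2, Mmp14 and Timp3 in each mouse by exposure and duration, with mean and SD. Smoke medians lie above sham medians for all 3 genes at 1 day, and at 5 days they lie below sham for Mmp2 (9.32 against 9.56) and Mmp14 (9.05 against 9.23) and above sham for Timp3 (11.09 against 10.88).

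Some fibroblast markers and matrix genes changed with smoke in the same direction as Mmp2. Of 6 fibroblast markers, 1 was higher with smoke at 1 day (Pdgfra, 0.22) and 3 were lower at 5 days (Tcf21 -0.38, Col13a1 -0.28 and Dpt -0.19). Over all rows, 9.45% and 6.53% passed for smoke in either direction. The exposure by duration term passed with a negative sign in 2 of the 6 markers. The fibroblast marker mean ran from 8.02 to 8.45 in sham and 8.09 to 8.45 in smoke at 1 day, and from 8.15 to 8.52 in sham and 7.76 to 8.42 in smoke at 5 days. It averaged 8.22 in sham and 8.24 in smoke at 1 day, and 8.37 and 8.20 at 5 days. Its within-group correlation with Mmp2 was 0.574, and its part in the Mmp2 difference was not tested.
Of 12 matrix genes, 3 rose with smoke at 1 day (elastin Eln 0.54, and the basement membrane collagens Col4a1 0.24 and Col4a2 0.22). At 5 days 6 fell, namely Tnc (-0.60), Col3a1 (-0.58), Col1a1 (-0.39), Fbn1 (-0.35), Fbln5 (-0.18) and Lama4 (-0.12). The median coefficient of the list was 0.09 and -0.24, beside 0.01 and 0.00 over all rows. The exposure by duration term passed with a negative sign in 6 of the 12, including Eln (-0.93), Col3a1 (-0.73) and Fbn1 (-0.42). Col3a1 (r = 0.901), Col1a2 (0.884) and Ppic (0.883) were the genes most like Mmp2 over all mice. Eln (0.873), Fbn1 (0.829) and Tgm2 (0.828) were those most like Mmp14. Within groups Col3a1 (0.861), Mfap4 (0.834) and Col1a2 (0.820) were nearest to Mmp2, and Fbn1 (0.746), Col5a2 (0.712) and Fn1 (0.707) to Mmp14.

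Mmp12 and Timp1 did not pass for smoke at either duration. The Mmp12 differences were 0.13 (SE 0.39, adjusted p = 0.897) and -0.57 (SE 0.34, adjusted p = 0.406), and those of Timp1 were -0.06 (adjusted p = 0.932) and -0.35 (adjusted p = 0.590). For Mmp12 the 95% confidence interval was -0.66 to 0.92 after 1 day and -1.26 to 0.12 after 5 days. Most smoke-exposed WT mice at 1 day, 7 of 10, were below every sham-exposed WT mouse in Mmp12. At 5 days, 5 of 10 smoke-exposed βENaC mice were below every sham-exposed βENaC mouse, and 1 was above all of them. Within βENaC mice the smoke minus sham value was 1.76 in females and -1.02 in males at 1 day, and -1.90 and -0.57 at 5 days. In WT mice it was -0.40 in females and 0.17 in males at 1 day, and -0.14 and 0.27 at 5 days. No stratum passed, with a lowest limma adjusted p of 0.290 at 1 day and 0.375 at 5 days. These tests used a spread pooled over all groups of a duration, and Mmp12 varied far more in βENaC than in most WT mice. They could therefore not decide whether WT mice had a small smoke difference. The exposure by genotype term of Mmp12 at 5 days was -1.31 (SE 0.66, limma adjusted p = 1.00).

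Mmp8 and Mmp9, proteases stored in neutrophil granules, overlapped between sham and smoke. Mmp9 had medians of 6.47 in sham and 6.05 in smoke at 1 day and of 6.12 and 5.99 at 5 days. Its smoke differences were -0.43 (SE 0.18, adjusted p = 0.130) and -0.33 (SE 0.13, adjusted p = 0.124), and 15 of 20 and 14 of 19 smoke-exposed mice were not above the sham mean of their own stratum. With a common effect at both durations, in a fit over all 79 mice, it was -0.38 (limma adjusted p = 0.0109). Mmp8 differences were 0.08 (adjusted p = 0.894) and 0.20 (adjusted p = 0.588), and values spread from 4.89 to 7.65 over the 79 mice. Single mice moved both Mmp8 differences by over 1.5 times without bringing either past the test. With 1 mouse left out the 1-day value ranged from 0.01 (without the sham-exposed WT female replicate 4) to 0.17 (without the sham-exposed βENaC male replicate 1), and without the smoke-exposed βENaC female replicate 5 it was 0.02. The 5-day value ranged from 0.10 (without the smoke-exposed WT female replicate 2) to 0.26.
Within groups, Mmp8 and Mmp9 correlated at 0.792 with each other and at 0.901 and 0.856 with the mean of 9 neutrophil markers. Csf3r, the receptor of the granulocyte growth factor, was the gene most like each of them within groups (0.897 and 0.908). The neutrophil marker mean ran from 5.58 to 7.12 in sham and 5.38 to 6.67 in smoke at 1 day, and from 5.66 to 6.69 and 5.38 to 6.76 at 5 days, with 1 of 9 markers passing for smoke at 1 day (Retnlg, -0.66) and 0 at 5 days. Of the granule genes in the list, Mpo ran from 2.79 to 3.56, Camp from 3.01 to 3.69 and Ngp from 2.61 to 4.49 over all mice. Ltf, which encodes lactoferrin, ran from 6.47 to 9.12, and these ranges are not compared between genes. The part of neutrophil number in the Mmp9 values was not tested. The mean of 6 monocyte markers averaged 7.80 in sham (7.10 to 8.74) and 7.39 in smoke (7.00 to 7.80) at 1 day. At 5 days it averaged 7.68 in sham (7.37 to 8.05) and 7.23 in smoke (6.52 to 7.73), and differences in this mean were not tested.

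**Figure D5:**
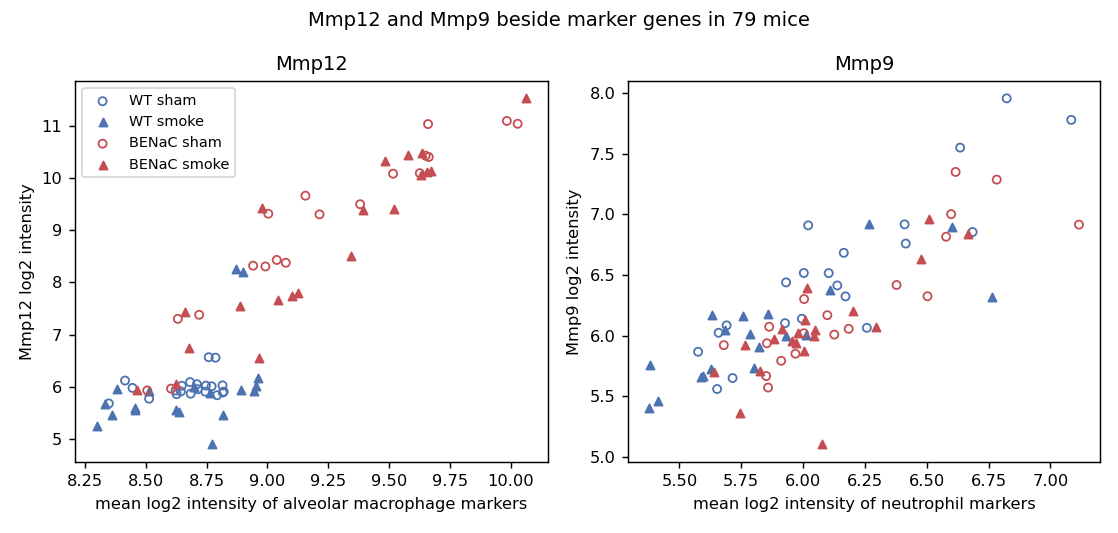
Log2 intensity of Mmp12 against the mean of 8 alveolar macrophage markers and of Mmp9 against the mean of 9 neutrophil markers, 1 point per mouse. Within-group correlations are 0.883 for Mmp12 with macrophage markers and 0.856 for Mmp9 with neutrophil markers.

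Mmp3 and Timp2 showed no smoke difference that passed. Mmp3 was 5.89 to 7.62 over all mice, with differences of -0.02 (adjusted p = 0.931) and -0.22 (adjusted p = 0.170). Timp2 was the least variable member, with a pooled SD within groups of 0.0784 and values of 10.63 to 11.07, and its smoke differences were 0.03 and -0.01. By the same measure the other members followed in the order Timp3 (0.135), Mmp14 (0.181), Mmp3 (0.316), Mmp2 (0.341), Mmp9 (0.509), Mmp8 (0.699), Timp1 (0.925) and Mmp12 (1.17). The SD of Mmp12 in single groups ranged from 0.112 in sham-exposed WT males at 1 day to 2.17 in sham-exposed βENaC males at 1 day.

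Sex differences were found in the gelatinase Mmp2 and its activator Mmp14 at 1 day. Mmp14 and Mmp2 were called higher in males at 1 day, 2 of 9 members against 0.836% of all rows, and none was called at 5 days, against 0.198%. Without the fold threshold 3 members passed at 1 day, against 9.89% of all rows, and 0 at 5 days, against 0.616%. Mmp14 ran from 8.48 through a median of 8.90 to 9.30 in females and from 8.96 through 9.41 to 9.79 in males at 1 day, with 14 of 20 males above every female. The difference was 0.45 (SE 0.05, adjusted p = 6.27e-07, 1.36-fold).
Mmp2 ran from 8.32 through 9.23 to 9.82 in females and from 8.87 through 9.55 to 10.03 in males at 1 day, so most of the range was shared. Its difference was 0.44 (SE 0.10, adjusted p = 0.00362, 1.36-fold). Timp2 passed without the fold threshold (0.14, SE 0.03, adjusted p = 0.000800). At 5 days the values were 0.22 for Mmp14 (adjusted p = 0.0594), 0.37 for Mmp2 (adjusted p = 0.0792) and 0.07 for Timp2 (adjusted p = 0.186), and 3 members had an unadjusted p below 0.05. Without the smoke-exposed WT female replicate 2 the Mmp14 value passed at 5 days (0.23, limma adjusted p = 0.0300). No sex by duration term passed (Mmp14 -0.23, limma adjusted p = 0.182, against 0.654% of all rows), so a loss of the difference by 5 days was not shown. Of the 12 matrix genes, 8 were higher in males at 1 day, with Eln (0.91), Col3a1 (0.51) and Col1a1 (0.50) called.

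Terms for exposure by genotype, exposure by sex and genotype by sex gave 0 of 54 member tests that passed in limma, with 1 unadjusted p below 0.05 and a lowest adjusted p of 0.788. Of all rows, 0.00638% passed for exposure by genotype and 0.00638% for exposure by sex at 1 day, and 0% for the other terms.

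Other genes of the protease system were read from lists of their families. These lists were chosen with earlier results of these data known, so their counts are descriptions only. Among 14 other metalloproteases, Mmp19 (0.67 and 0.78) and Mmp25 (0.78 and 0.91) were called higher in βENaC mice at both durations and Mmp13 at 5 days, and 3 of 14 passed at each duration (Mmp23, 0.21, at 1 day without the fold threshold). Among 4 other inhibitors, Timp4 (0.39) and Tfpi2 (0.46) were called higher at 5 days, and Reck, a membrane-anchored inhibitor, was lower at both (-0.25 and -0.20). Of 10 cathepsins and cystatins, 8 passed as higher in βENaC mice at each duration, against 5.87% and 10.2% of all rows passing in either direction. The median coefficient of the 10 was 0.37 and 0.44 beside 0.00 and -0.01 over all rows. Ctsk, a lysosomal protease that also degrades elastin and collagen, was highest among them (1.94 and 1.97), followed at 5 days by Ctss (0.65), Ctsd (0.61) and Ctsz (0.60). Adam8 (0.99 and 1.08), the MMP9-binding lipocalin Lcn2 (0.85 and 1.01) and the antiproteases Slpi (0.50 and 0.74) and Serpina3n (0.52 and 0.57) were called at both durations, while Spp1 (1.22) and Plau (0.50), which activates plasminogen, were called at 5 days.
With smoke, changes in these families were small. Mmp28 was 0.33 higher at 1 day, Mmp15 (-0.37) and Mmp24 (-0.16) were lower at 5 days, and Adamts1 (-0.42) and Adamts9 (-0.42) were called lower at 5 days while Adam8 (0.41) was called higher. Of the 10 cathepsins and cystatins only Ctsh passed for smoke, at 0.13 and 0.16.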

How the data were processed

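Right lungs of 79 mice were profiled on Affymetrix mouse gene arrays. Per the submitters' notes and the study's methods, the values the authors deposited are log2 intensities from RMA, with Partek 6.6 for normalization. Affymetrix Expression Console 1.4 is named for quality control. The values were corrected for probe sequence, quantile normalized across arrays and summarised per row by median polish. Such normalization assumes that most genes do not change and compresses large differences. A genome build was not given in the sources used here. The authors removed 1 array as mislabelled for smoke exposure, judged by plasma cotinine and gene expression. Each sample is a separate mouse, and groups were taken from sample titles. For arrays the number of mice limits the precision.

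From 31350 rows, 9513 without a symbol were kept in every fit. limma 3.58.1 (R 4.3.3) fitted genotype, exposure and sex per duration, plus models with two-way terms, terms by duration and group means, with Benjamini-Hochberg adjustment over all rows. Correlations and counts were made with Python 3.11.15, pandas 2.3.3, numpy 2.4.6 and scipy 1.17.1. Exact permutation tests were run within strata. The fitting script was tested on simulated data. All members were named, with list genes that passed, and for each member the 3 most correlated genes over all mice and within groups. The members and gene lists were chosen with earlier results of these data known. Replicate numbers did not pair the mice: same-numbered mice of different groups correlated at a mean of 0.0243 at 1 day and -0.0009 at 5 days after group means were removed. Alternatives were the ordinary linear model, quantile, median and loess normalization, a filter on low rows, 1 row per symbol, array weights, a robust trend prior, the replicate block, 1 fit over all mice, leaving out the 13 mice and each mouse in turn, and other fold thresholds.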

Additional observations from a re-analysis of the deposited data

Results flagged for a closer look

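In a group of 4 to 6 mice, a mouse was singled out when its gap to its nearest neighbour took up more of the group's range than Dixon's 95% limit allows. That held for 21 of 144 gene and group pairs, where chance gives about 1 in 20. No cause was tested for any of them.

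Among sham-exposed WT mice of the 5-day groups, female replicate 3 was low in Mmp2 (8.57) and Mmp14 (8.55) and high in Mmp8 (6.72), and male replicate 1 was high in Mmp12 (6.57) and Timp1 (7.16). Without that female, the 5-day smoke difference of Mmp14 passed (-0.19, limma adjusted p = 0.0173) and that of Mmp2 was -0.41 (limma adjusted p = 0.00386).

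The smoke-exposed WT female replicate 2 of the 5-day groups had the lowest Mmp12 (4.89) and the highest Timp3 (11.61) of all mice. It also had a fibroblast marker mean of 7.76 and a monocyte marker mean of 6.52, both the lowest of the smoke-exposed mice at 5 days. Without it the 5-day smoke difference of Mmp14 passed (-0.19, limma adjusted p = 0.0353), and the genotype difference of Mmp12 was 3.19.

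Other mice far from their groups in Mmp12 were the smoke-exposed WT male replicate 5 at 1 day (8.25) and the smoke-exposed WT female replicate 1 at 1 day (5.92). Without the male, the 1-day genotype difference of Mmp12 was 2.69 (limma adjusted p = 7.49e-06). In Timp1 they were the smoke-exposed βENaC female replicate 3 at 5 days (9.57) and the sham-exposed WT female replicate 5 at 1 day (6.33).

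In the neutrophil-associated Mmp8 and Mmp9, the smoke-exposed βENaC female replicate 5 at 1 day was high in both (7.58 and 6.84). The sham-exposed βENaC male replicate 1 at 1 day was high in Mmp8 (7.65), and the smoke-exposed WT male replicate 1 at 1 day was high in Mmp9 (6.92).

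The remaining mice were in Mmp14 the sham-exposed βENaC female replicate 2 at 5 days (9.01), the sham-exposed βENaC male replicate 5 at 1 day (8.96) and the smoke-exposed WT male replicate 2 at 5 days (8.83). In Mmp3 it was the smoke-exposed WT male replicate 4 at 5 days (6.27). The smoke-exposed WT female replicate 5 at 1 day was low in both Timp2 (10.72) and Timp3 (10.92).

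The exposure by duration term passed for 2 members: Mmp2 (-0.65, limma adjusted p = 0.00808) and Mmp14 (-0.32, limma adjusted p = 0.0170). Neither term passed in a model of exposure and duration alone, nor without the 13 mice whose source label differed.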

How the results depend on the processing

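The genotype differences of Mmp12 and Timp1 passed under every setting run, Mmp12 from 2.42 to 2.88 at 1 day and 2.88 to 3.83 at 5 days, Timp1 from 0.99 to 1.26 and 1.06 to 1.46 (highest limma adjusted p 0.0498). Leaving out 1 mouse lost no call of a member. In that series genes called in the lists ranged from 1 to 2 (exposure, 1 day), 3 to 8 (exposure, 5 days) and 0 to 2 (sex, 5 days), members called from 0 to 1 for exposure at 5 days (Mmp2 in 15 of 39 fits, Mmp9 in 1) and 0 to 1 for sex at 5 days (without the smoke-exposed WT female replicate 5, Mmp2 0.40, limma adjusted p = 0.0471), and stratum tests passed from 0 to 2 for smoke and 3 to 5 for genotype. Signs turned only where neither value passed. With 1 mouse left out these were exposure at 1 day for Timp1 (-0.15 to 0.12), Mmp12 (-0.0110 to 0.28) and Mmp3 (-0.0549 to 0.0288), sex for Mmp12 at 1 day (-0.0883 to 0.21) and Mmp8 at 5 days (-0.0281 to 0.11), and genotype for Timp2 at 5 days (-0.0170 to 0.00200).

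With 1 fit over all 79 mice, members called became 1 for exposure, 1 for sex at 1 day and 1 for sex at 5 days, list genes 1 for exposure and 3 for sex at 5 days. Signs turned at 1 day for exposure in Mmp12 (-0.20), Mmp14 (-0.00360) and Mmp2 (-0.0442), and at 5 days for exposure in Timp2 (0.0106) and for sex in Mmp8 (-0.14), Timp3 (0.00857) and Mmp9 (-0.0466). This fit assumes 1 effect for both durations. Without the 13 mice whose source label differed, members passing for a term by duration fell from 2 to 0, list genes became 2 and 3 for exposure and 12 for genotype at 5 days, and signs turned for Mmp3 exposure (0.0275) and Mmp12 sex (-0.0856) at 1 day. Array weights gave 5 and 7 stratum tests passed for smoke and genotype, 2 list genes for sex at 5 days and Mmp12 sex at 1 day of -0.10. Median centring gave 1 member (Mmp2) and 1 list gene for sex at 5 days, and cyclic loess turned Timp2 genotype at 5 days (0.0105). Without the lowest 30% of rows, or with 1 row per symbol, 5 genotype stratum tests passed in place of 3. Exact permutation tests within strata gave 0. For genotype their lowest adjusted p was 0.0952 and the smallest p each allows 0.00476 to 0.00794, and for smoke these were 0.19 and 0.00216 to 0.00794. These p-values were adjusted over the 72 tests of each family, not over all rows. An adjusted p below 0.05 would have needed several tests near their smallest p at once, so this count says little about the limma results. The exposure and duration model gave 0 members. The replicate block, on numbers that share no mouse, moved the smoke stratum tests from 0 to 1 and changed no other count by over 1.5 times.

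Without a fold threshold, members called were 1 and 2 for exposure and 4 for genotype at 5 days, and list genes 27 and 31 for genotype, 12 and 14 for exposure, 17 and 4 for sex. At 1.5-fold no member was called for sex at 1 day (0), and list genes were 5 and 11 for genotype, 0 and 1 for exposure and 1 for sex at 1 day. At 1.3-fold the list genes were 12 and 19, 1 and 6, and 4 and 0. Causes of these changes were not tested. Each member had 1 row, so other rows were not run.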
